A study of Homo sapiens with 6 samples.

Results

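SLC7A11 and the genes of the NRF2 antioxidant system were described in the transcripts that an antibody against PTBP1, an RNA-binding protein, brought down from AC16 cells. The 9 genes were found by name in the deposited table of 20024 genes: SLC7A11, GCLC, GCLM, NQO1, TXNRD1, HMOX1, SRXN1, NFE2L2 and KEAP1. They were selected on their FPKM differences between DCRT-KO and WT libraries, which were known when the set was proposed. Their values in this comparison are therefore a description, and no p-value is given for these 9 genes. There were 3 libraries from DCRT-KO cells, a knockout of the long noncoding RNA DCRT, and 3 from WT cells that carry it. Both groups were AC16 cells from heart, labelled as cardiomyocytes, and all libraries came from RNA immunoprecipitation with sequencing (RIP-seq) with a PTBP1 antibody. The method sequences RNA that comes down together with the protein the antibody recognises. The study links DCRT to PTBP1 binding and dilated cardiomyopathy, and the comparison addresses what PTBP1 RIP recovers without DCRT. The labels name no separate knockout clones or cultures, so it is not known whether each group is 1 clone or whether the replicates are separate cultures.

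NRF2, the transcription factor encoded by NFE2L2, is held at low level by KEAP1, an adaptor that brings it to a CUL3 ubiquitin ligase. When electrophiles or oxidants modify KEAP1, NRF2 accumulates, enters the nucleus and binds antioxidant response elements together with small MAF proteins. Its targets supply cystine and glutathione, reduce thioredoxin and peroxiredoxins, and detoxify quinones and heme. SLC7A11 is the light chain of the cystine and glutamate exchanger known as xCT, and is also a target of the stress factor ATF4. PTBP1, the antibody's target, binds CU-rich stretches in transcripts, among which UCUU is a well-known core, and controls splicing, stability and translation.

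Shown first is, for each of 3 transcripts, the window with the most TCTT matches (UCUU in RNA), because PTBP1 binds such letters. Ties went to the window with the most C and T letters, and then to the first. They are the transcripts of SLC7A11 and KEAP1, the 2 of the 9 genes past the limma threshold, and of GCLM. Capitals mark TCTT in a window of 30 bases of the longest protein-coding transcript of GENCODE 29 (GRCh38, minus strand). The SLC7A11 window lies in its 3′ UTR at chr4:138170891-138170920, the GCLM window in its 3′ UTR at chr1:93888364-93888393 and the KEAP1 window in its coding sequence at chr19:10499713-10499742.
SLC7A11: tttTCTTtatacattttatatTCTTctgtt
GCLM: ccttgtatTCTTgtgccatattctgTCTTt
KEAP1: gtggtgctggcctcatccagccctgTCTTc
The SLC7A11 and GCLM windows each held 2 matches and the KEAP1 window 1. These transcripts of SLC7A11, GCLM and KEAP1 had 9645, 4857 and 2955 bases, and a longer transcript offers more windows. Nothing is therefore read from the number of matches or from where a window lies. A match is a description of the letters and no evidence of binding.

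The core of the antioxidant response element, TGACNNNGC on either strand, was searched in RefSeq promoters (GRCh38.p14) that run 250 bases before to 50 after a gene's start. Of all 35116 promoters, 13.3% held it. The table held 10 promoters of 7 of the 9 genes (all but SLC7A11 and HMOX1). Of these genes 3 had a match in at least 1 promoter, GCLM, KEAP1 and TXNRD1. Another KEAP1 promoter, at chr19:10503307-10503606, had 0 matches. The 13.3% counts promoters and the 3 counts genes, so they are not compared. Capitals mark the core in windows of 30 bases, at chr1:93909445-93909474 (minus strand) for GCLM, chr19:10502783-10502812 (minus strand) for KEAP1 and chr12:104215670-104215699 (plus strand) for TXNRD1.
GCLM: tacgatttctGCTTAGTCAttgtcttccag
KEAP1: gcccggctctGCTTAGTCAtggtgacctgc
TXNRD1: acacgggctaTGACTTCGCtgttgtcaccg
The GCLM and KEAP1 cores, both on the opposite strand, began 34 and 31 bases before the annotated start, and that of TXNRD1 began 99 bases before it. The same KEAP1 promoter held another core and the TXNRD1 promoters held 2 more. These windows give context for a known regulatory element, and the RIP data do not measure promoter activity.

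Values are FPKM, which scale fragments by gene length and by the number counted in a library. Reads worked back from FPKM totalled 373354 to 1380722 in DCRT-KO and 1798841 to 2589080 in WT libraries, so every DCRT-KO library was shallower and depth goes with genotype. DCRT-KO library 3 was the deepest of its group, and without it the genes past the threshold numbered 707 higher and 821 lower, against 269 higher and 137 lower with it (limma, Benjamini-Hochberg adjusted p below 0.05, 11445 genes tested). DCRT has no row in the table, so the knockout was not checked here. Input and control antibody libraries were not analysed here. A RIP level can therefore follow transcript abundance, PTBP1 binding or unbound background, and fewer cells with a transcript and less RNA per cell cannot be told apart. Of 14 cardiomyocyte markers, 6 were at 0 in all libraries, among them the sarcomere genes TNNT2, TNNI3, MYH6 and MYH7, while TTN, the giant sarcomere protein titin, had 1.59 to 3.38 FPKM in DCRT-KO and 3.16 to 4.99 FPKM in WT, and the cardiac factor GATA4 had 6.82 to 13.3 FPKM in DCRT-KO and 5.74 to 7.01 FPKM in WT. The troponins and myosin heavy chains that define the labelled cell type were not detected at this depth. The summed level of the 14 markers was 8.41 to 27.9 FPKM in DCRT-KO and 11.6 to 13.7 FPKM in WT. The highest sum was that of DCRT-KO library 2, the shallowest, where GATA4 had 13.3, NPPB 7.57 and NPPA 4.78 FPKM. NPPA and NPPB were at 0 in DCRT-KO libraries 1 and 3. Of the fibroblast, endothelial, epithelial and blood markers 1 passed the test, the keratin KRT18, which rose. The sum of the 5 epithelial markers, of which CDH1 and KRT19 were at 0, was 93.8 to 227 FPKM in DCRT-KO and 58.5 to 67.0 FPKM in WT. The fibroblast markers summed to 92.4 to 122 FPKM in DCRT-KO and 88.2 to 106 FPKM in WT, with COL1A2, DCN and LUM at 0. Of the 2 that were tested, VIM made up most of this sum, with means of 94.1 FPKM in DCRT-KO and 78.3 FPKM in WT. PDGFRA went the other way, with means of 9.90 and 18.0 FPKM in the same order. The part of these markers in the results was not tested. PTBP1 mRNA had 119 ± 17.2 FPKM in DCRT-KO and 118 ± 11.7 FPKM in WT (SD, n = 3 each).

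Cystine uptake comes first. SLC7A11 (ENSG00000151012) lies on chromosome 4 at 138164097 to 138242349, minus strand, as the deposited file gives it. It had 3.34, 6.39 and 6.38 FPKM in DCRT-KO libraries 1, 2 and 3, against 12.7, 14.9 and 15.0 FPKM in WT libraries a, b and c. All DCRT-KO values lay below all WT values, with DCRT-KO library 1 the lowest of all 6. The means were 5.37 ± 1.76 FPKM in DCRT-KO and 14.2 ± 1.29 FPKM in WT (SD, n = 3 each), a ratio of 0.379. These rest on 17, 23 and 85 reads in DCRT-KO and 317, 258 and 298 reads in WT. The exact Poisson 95% interval reached up to 9.58 FPKM in DCRT-KO library 2, the highest upper bound of that group, and down to 11.3 FPKM in WT library a, the lowest lower bound in WT. These intervals did not meet, but they cover counting error only and leave out the spread between libraries. PCR copies cannot be told from separate molecules here, so the intervals may be too narrow even for counting error. The log2 difference was -1.29 ± 0.25 (SE) on the log2(FPKM + 1) scale, at percentile 1.59 of all tested genes. It was -1.42 without DCRT-KO library 2 and -1.36, -1.26 and -1.25 without WT library a, b and c, and in each of these SLC7A11 was no longer past the limma threshold.

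SLC3A2, the heavy chain that carries xCT to the cell surface, had 20.8, 32.1 and 32.5 FPKM in DCRT-KO and 34.6, 36.9 and 33.8 FPKM in WT libraries. Its groups did not overlap either, but its difference of -0.32 ± 0.20 (SE) on the log2 scale did not pass the test (limma adjusted p = 0.355). The ratio of SLC7A11 to SLC3A2 within a library, both per length, was 0.160, 0.199 and 0.197 in DCRT-KO and 0.367, 0.403 and 0.443 in WT. The light chain was thus lower against its partner in each DCRT-KO library than in each WT library.

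**Figure D1:**
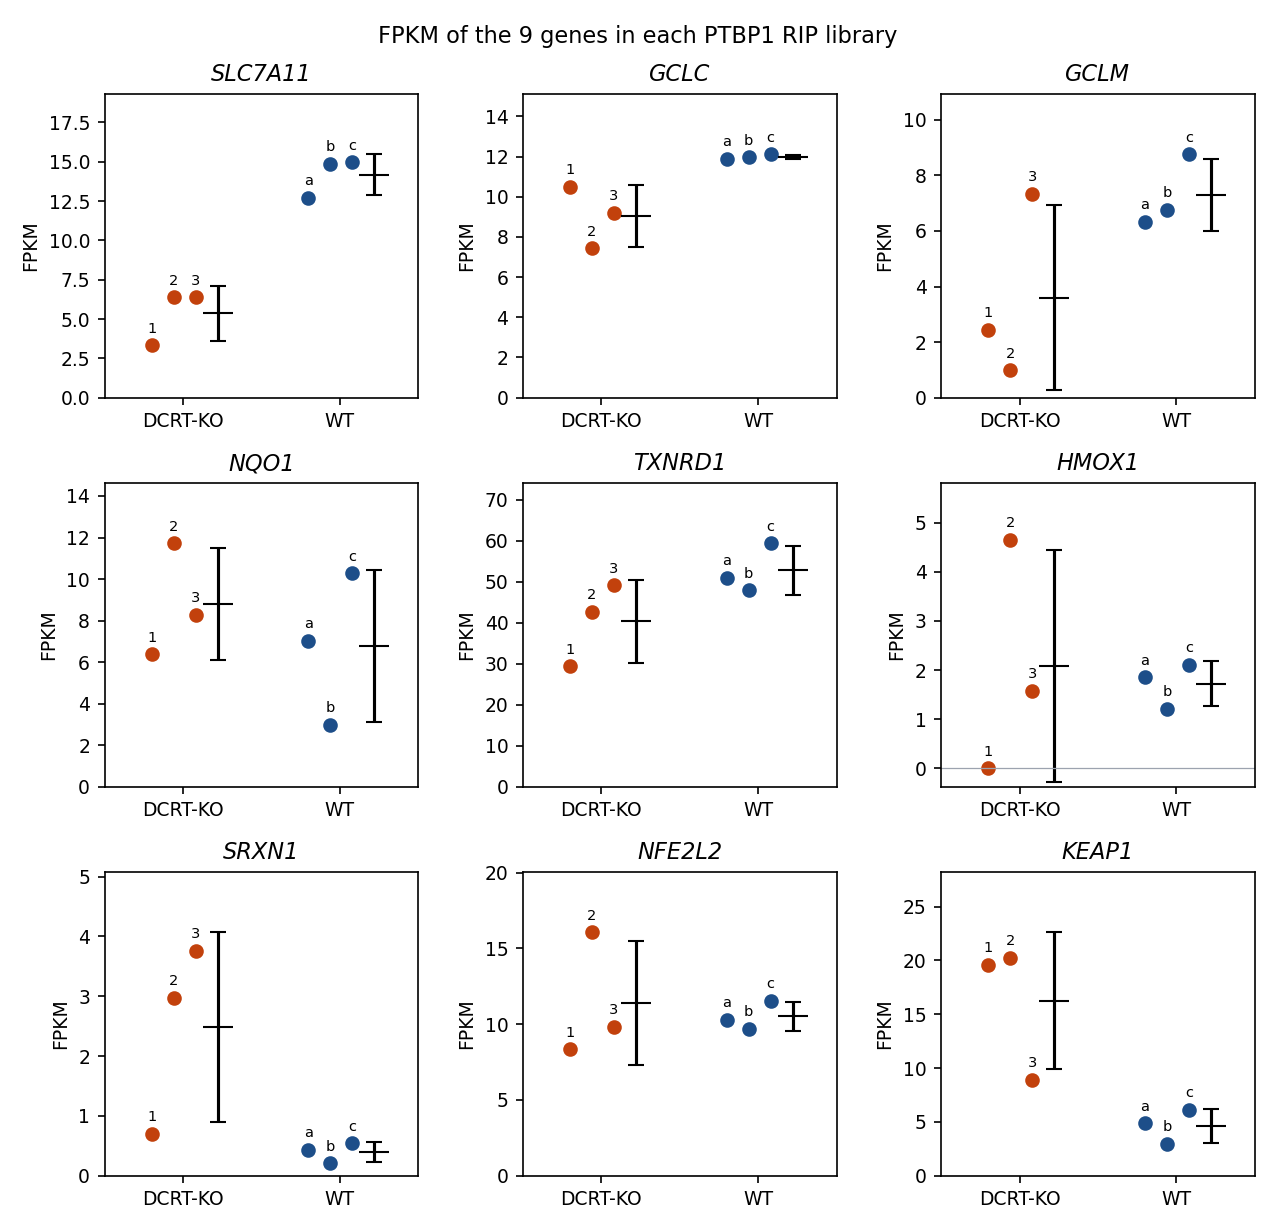
FPKM (y axis, linear, own scale per panel) of the 9 genes in each PTBP1 RIP library, with DCRT-KO libraries 1 to 3 left and WT libraries a to c right. Points are libraries and the horizontal line with its bar is the mean with the SD of 3 libraries. SLC7A11 and GCLC lie below WT in all DCRT-KO libraries, KEAP1 and SRXN1 above, and the other 5 genes overlap.

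Glutathione synthesis begins with glutamate-cysteine ligase, whose catalytic subunit is GCLC and whose modifier subunit is GCLM. GCLC (ENSG00000001084; chromosome 6, 53497341 to 53616970, minus strand) had 10.5, 7.43 and 9.21 FPKM in DCRT-KO and 11.9, 12.0 and 12.1 FPKM in WT libraries. The WT values were nearly equal, with a coefficient of variation of 0.97%, and all DCRT-KO values lay below them. The means were 9.05 ± 1.54 FPKM in DCRT-KO and 12.0 ± 0.116 FPKM in WT (SD, n = 3 each), with a log2 difference of -0.38 ± 0.19 (SE).

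GCLM (ENSG00000023909; chromosome 1, 93885199 to 93909456, minus strand) had 2.44, 0.987 and 7.34 FPKM in DCRT-KO and 6.34, 6.76 and 8.76 FPKM in WT libraries. DCRT-KO library 3 lay within the WT range, while libraries 1 and 2, with 7 and 2 reads, lay below it. The means were 3.59 ± 3.33 FPKM in DCRT-KO and 7.28 ± 1.29 FPKM in WT (SD, n = 3 each), and the log2 difference was -1.09 ± 0.46 (SE). Without DCRT-KO replicate 3 it was -1.65, and without replicate 2 it was -0.62, so 1 library decides much of this value, and GCLM was past the limma threshold in the first of these fits. The ratio of GCLC to GCLM was 4.30, 7.53 and 1.26 in DCRT-KO and 1.88, 1.77 and 1.38 in WT libraries. The catalytic subunit exceeded its modifier most in DCRT-KO libraries 1 and 2, and library 3 was below every WT library.

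The sensor and the transcription factor differed from each other. KEAP1 (ENSG00000079999; chromosome 19, 10486125 to 10503558, minus strand) had 19.6, 20.2 and 8.92 FPKM in DCRT-KO and 4.86, 2.96 and 6.11 FPKM in WT libraries. All DCRT-KO values lay above all WT values, with DCRT-KO library 3 closest to WT. The means were 16.3 ± 6.36 FPKM in DCRT-KO and 4.64 ± 1.59 FPKM in WT (SD, n = 3 each), and the log2 difference was 1.57 ± 0.34 (SE), at percentile 99.6 of all tested genes. The reads were 37, 27 and 44 in DCRT-KO and 45, 19 and 45 in WT. The exact Poisson 95% intervals of DCRT-KO library 3 (6.48 to 12.0 FPKM) and WT library c (4.45 to 8.17 FPKM) overlapped, and those of DCRT-KO libraries 1 and 2 began at 13.8 and 13.3 FPKM, above every WT interval. The log2 difference was 1.40 and 1.38 without DCRT-KO library 1 and 2, and 1.62, 1.34 and 1.76 without WT library a, b and c. In these 5 cases KEAP1 was no longer past the limma threshold.

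NFE2L2 (ENSG00000116044; chromosome 2, 177227595 to 177392697, minus strand) had 8.34, 16.1 and 9.83 FPKM in DCRT-KO and 10.3, 9.70 and 11.5 FPKM in WT libraries. DCRT-KO library 2 lay above the WT range, library 1 below it and library 3 inside it. The log2 difference was 0.06 ± 0.25 (SE), between -0.19 and 0.24 when single libraries were left out, with means of 11.4 ± 4.09 FPKM in DCRT-KO and 10.5 ± 0.938 FPKM in WT (SD, n = 3 each). The ratio of NFE2L2 to KEAP1 was 0.426, 0.793 and 1.10 in DCRT-KO, against 2.11, 3.28 and 1.89 in WT libraries. It was lower in every DCRT-KO library, and the KEAP1 values set this, since NFE2L2 overlapped.

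Of the thioredoxin arm, TXNRD1, the cytosolic thioredoxin reductase, was the most abundant of the 9 genes per length. TXNRD1 (ENSG00000198431; chromosome 12, 104215779 to 104350307, plus strand) had 29.3, 42.7 and 49.1 FPKM in DCRT-KO and 50.9, 48.0 and 59.4 FPKM in WT libraries. DCRT-KO library 3 lay inside the WT range and the other DCRT-KO libraries below it, with means of 40.4 ± 10.1 FPKM in DCRT-KO and 52.8 ± 5.92 FPKM in WT (SD, n = 3 each). The log2 difference was -0.40 ± 0.21 (SE). The protein-coding EID3 and the pseudogene RPL18AP3 overlap TXNRD1 on the same strand in GENCODE 29, so the assignment of its reads is uncertain.

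SRXN1, sulfiredoxin, which reactivates overoxidised peroxiredoxins, rested on very few reads. SRXN1 (ENSG00000271303; chromosome 20, 646615 to 653370, minus strand) had 0.701, 2.98 and 3.76 FPKM in DCRT-KO and 0.429, 0.206 and 0.539 FPKM in WT libraries, from 1, 3 and 14 against 3, 1 and 3 reads. All DCRT-KO values lay above all WT values, but the lowest DCRT-KO value was that of 1 read. The log2 difference was 1.20 ± 0.43 (SE), not past the limma threshold. It was past it at 1.65 without DCRT-KO library 1 and at 2.55 with voom on whole reads. SRXN1 met the filter of a mean of 1 FPKM only through the DCRT-KO libraries, and in GENCODE 29 another protein-coding gene on the same strand overlaps it, so the assignment of its reads is uncertain too. Genes on the opposite strand overlap SLC7A11, GCLC, NQO1, TXNRD1 and NFE2L2, and whether the counting used strand is not given in the sources used here. Noncoding genes or pseudogenes on the same strand overlap GCLC, NFE2L2 and KEAP1 as well. Among them are AL033397.1 at GCLC, AC019080.1 at NFE2L2 and the intronic AC011461.1 at KEAP1. Their part in the reads of these 3 genes was not tested.

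NQO1, the quinone reductase often used as an NRF2 readout, overlapped between the groups. NQO1 (ENSG00000181019; chromosome 16, 69706996 to 69726668, minus strand) had 6.37, 11.7 and 8.29 FPKM in DCRT-KO and 7.02, 2.99 and 10.3 FPKM in WT libraries. WT library b was the lowest of all 6 and DCRT-KO library 2 the highest, and the log2 difference of 0.42 ± 0.38 (SE) was 0.01 without WT library b.

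HMOX1, the inducible heme oxygenase, was near the detection limit. HMOX1 (ENSG00000100292; chromosome 22, 35380361 to 35394207, plus strand) had 0, 4.66 and 1.58 FPKM in DCRT-KO and 1.85, 1.21 and 2.11 FPKM in WT libraries, from 0, 4 and 5 against 11, 5 and 10 reads. The 0 of DCRT-KO library 1 allows up to 2.47 FPKM by the limit of 3 reads. By the two-sided exact Poisson 95% interval it allows up to 3.04 FPKM. Both limits lie above every WT value, so this 0 does not place the library below WT. DCRT-KO library 2 lay above every WT value, on 4 reads. No difference was resolved for this gene at this depth. The means were 2.08 ± 2.37 FPKM in DCRT-KO and 1.72 ± 0.463 FPKM in WT (SD, n = 3 each), with the opposite sign to the log2 difference. Its log2 difference was -0.14 ± 0.56 (SE), and the sign turned to 0.10 with quantile normalization and to 0.50 without DCRT-KO replicate 1.

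Across the set, 5 log2 differences were negative and 4 positive, with a median of -0.14, against -0.04 over all tested genes. Both the tally and the median rest on HMOX1, which has 9 reads in DCRT-KO and 26 in WT and whose sign turned as described. All 9 genes met the filter of a mean of 1 FPKM. Of these, 2 were past the limma threshold, SLC7A11 lower and KEAP1 higher, which 3.55% of tested genes were in either direction (2.35% higher and 1.2% lower). In 4 of the 9 the groups did not overlap (SLC7A11, GCLC, SRXN1 and KEAP1), and this held for 30.3% of tested genes. Since the genes were chosen with this comparison in view, nothing is read from these counts. On the log2(FPKM + 1) scale SLC7A11 and GCLM had the lowest differences and KEAP1 the highest. SRXN1 exceeded KEAP1 with a pseudocount of 0.1 (2.17 against 1.75), with voom (2.55 against 1.52) and without DCRT-KO library 1 (1.65 against 1.40), and HMOX1 (-0.75) lay below GCLM (-0.62) without DCRT-KO library 2.

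**Figure D2:**
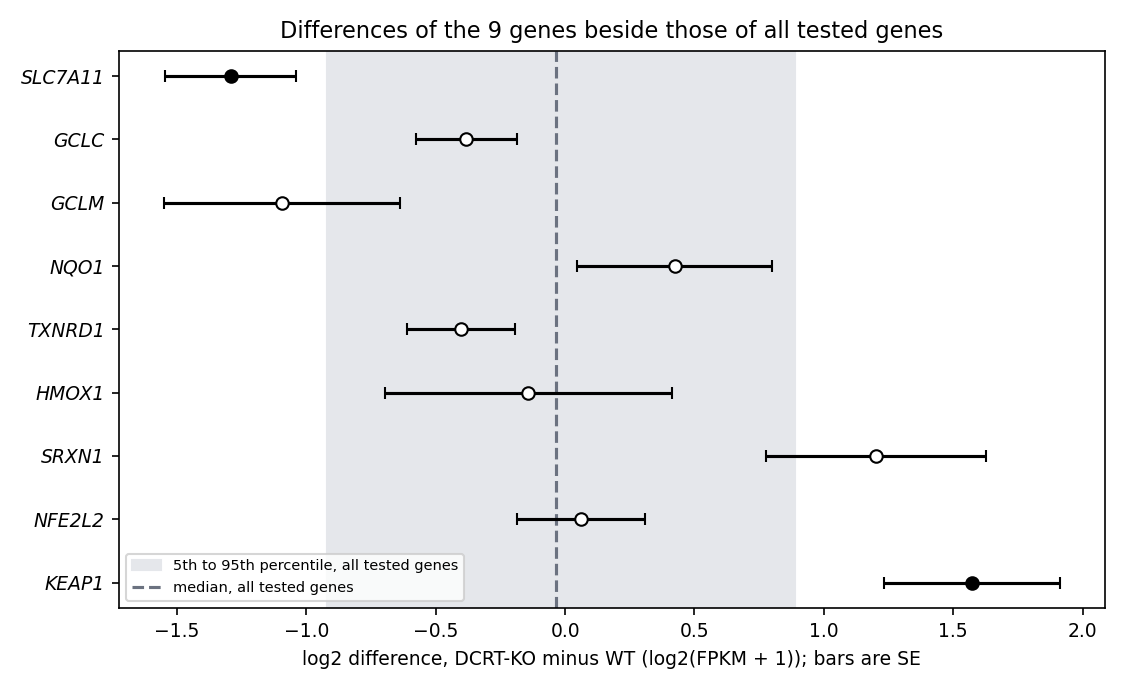
Log2 difference of each gene, DCRT-KO minus WT on the log2(FPKM + 1) scale (x axis), with its SE. Filled points (SLC7A11 and KEAP1) are past the limma threshold, the grey band spans the 5th to 95th percentile of all tested genes (-0.92 to 0.89) and the dashed line is their median (-0.04). SLC7A11, GCLM, SRXN1 and KEAP1 lie outside the band.

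The order of the levels per length, by the mean of all 6 libraries, began with TXNRD1 at 46.6 FPKM, followed by NFE2L2 at 11.0, GCLC at 10.5, KEAP1 at 10.4, SLC7A11 at 9.77, NQO1 at 7.78, GCLM at 5.44, HMOX1 at 1.90 and SRXN1 at 1.44 FPKM. In WT alone SLC7A11 was second after TXNRD1, with every WT value above those of GCLC and NFE2L2. In DCRT-KO alone KEAP1 was second by its mean, but its lowest library lay within the ranges of NFE2L2, GCLC and NQO1. TXNRD1 stood above 94.9% of tested genes and SRXN1 above 6.27%.

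The coefficient of variation was larger in the shallower DCRT-KO group for 8 of the 9 genes, NQO1 being the exception at 30.8% in DCRT-KO and 54.0% in WT. The same held for 76.7% of the 11424 tested genes with a value in both groups. For SLC7A11 it was 32.8% in DCRT-KO and 9.09% in WT. Against counting error alone, chi-square per degree of freedom of the SLC7A11 reads was 3.20 in DCRT-KO and 2.66 in WT, where the median tested gene had 1.92 in DCRT-KO and 2.13 in WT. GCLM had 8.91 in DCRT-KO and 2.73 in WT, and KEAP1 8.83 and 3.63 in the same order. GCLC varied no more than counting error, with 0.968 in DCRT-KO and 0.0219 in WT.

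The genes also differ in GC content. It is not independent of their choice, because the differences they were chosen on followed GC content over all tested genes. The longest protein-coding transcript of SLC7A11 had 35.4% GC, lower than all but 1.72% of tested genes, and that of GCLM had 37.3%. KEAP1 had 60.3% GC, HMOX1 58.1% and SRXN1 53.6%, while GCLC, TXNRD1, NFE2L2 and NQO1 lay between 44.3% and 46.0%. Among all tested genes the log2 difference followed GC content. With the tested genes cut into 10 deciles by GC content, the median was -0.39 in decile 1, which holds SLC7A11 and GCLM, and 0.22 in decile 9, which holds KEAP1. In decile 1, of 1143 genes, 1 was past the threshold upwards and 21 downwards. In decile 9, of 1142 genes, 52 were past it upwards and 2 downwards. Of all tested genes, 2.35% were past it upwards and 1.2% downwards. Deciles 2, 3 and 4 had more downward calls (26, 28 and 23) than decile 1, and decile 10 more upward calls (76) than decile 9. Over 11425 tested genes, Spearman's rho of GC content and log2 difference was 0.43, given as a description, since the genes share the same 6 libraries. SLC7A11 (-1.29) lay below the 10th percentile of its own decile (-0.94), and KEAP1 (1.57) above the 90th percentile of its own (0.83). Both genes were chosen on their differences, so nothing is read from these positions. After removal of the dependence on transcript GC and length within every library, chosen after the data were seen, the log2 difference was -0.88 for SLC7A11 and 1.35 for KEAP1, and neither was past the threshold. The part of GC content and of depth in these differences was not tested.

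**Figure D3:**
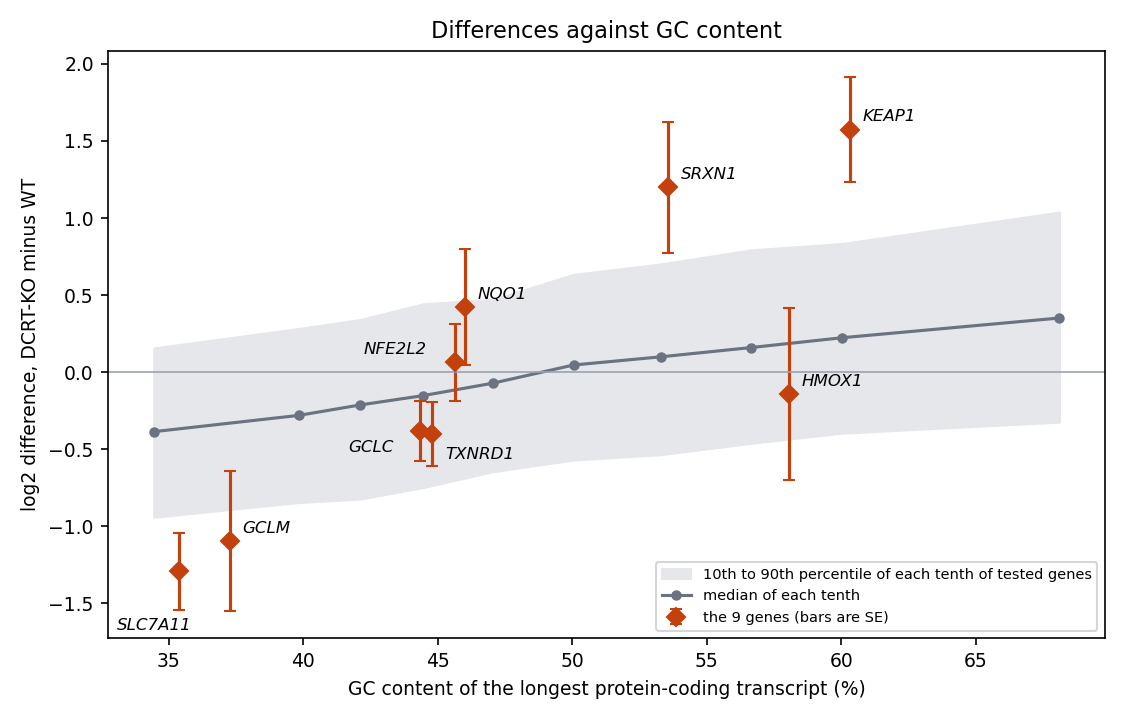
Log2 difference, DCRT-KO minus WT (y axis), against GC content of the longest protein-coding transcript (x axis, %). Diamonds are the 9 genes with their SE; the grey line joins the medians of GC deciles of all tested genes, rising along the axis from -0.39 to 0.35, and the band spans their 10th to 90th percentile. SLC7A11 and GCLM lie below the band, and KEAP1 and SRXN1 above it.

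The transcripts also differed in the density of TCTT. SLC7A11 had 6.12 and GCLM 5.56 matches per kb, against 5.19 in SRXN1 and 3.05 in KEAP1, the lowest of the 9. TXNRD1 with 8.18 and NQO1 with 7.55 were the densest, GCLC had 5.51, HMOX1 4.39 and NFE2L2 4.21. The part of this density in the differences was not tested. Among tested genes SLC7A11 stood at percentile 68.8, KEAP1 at 17.4 and TXNRD1 at 92.8 by this density.

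Neighbouring genes were examined to set each difference beside those of its surroundings. Within 5 Mb of SLC7A11, 15 other genes were tested, of which 12 had negative and 3 positive differences, with a median of -0.27, and none was past the threshold. The nearest ones on either side were PCDH18, a protocadherin, at 0.625 ± 0.494 FPKM in DCRT-KO and 1.41 ± 0.119 FPKM in WT, and NOCT, the circadian phosphatase nocturnin, at 10.1 ± 4.16 FPKM in DCRT-KO and 15.3 ± 0.532 FPKM in WT (SD, n = 3 each). Their log2 differences of -0.61 ± 0.34 and -0.64 ± 0.29 (SE) did not pass (limma adjusted p = 0.314 and 0.225). PCDH18 met the filter of a mean of 1 FPKM only through the WT libraries, with 0.283, 0.401 and 1.19 FPKM in DCRT-KO libraries 1, 2 and 3. Beyond PCDH18 and NOCT, ELF2, an ETS factor, had a difference of -0.04 ± 0.32 (SE) and PABPC4L one of 0.54 ± 0.24 (SE). These did not pass either (limma adjusted p = 0.956 and 0.221). Around GCLM, 27 of 32 neighbours had negative differences (median -0.28), with 0 past the threshold upwards and 1 downwards. KEAP1 had 140 neighbours, 93 of them positive (median 0.22), with 6 past it upwards and 0 downwards. Around SRXN1, 45 of 53 were positive (median 0.35), with 3 and 0. NQO1 had 3 of 88 past it upwards, HMOX1 3 of 82 and TXNRD1 1 of 47, with 0 downwards. GCLC and NFE2L2 had none. Of all 11445 tested genes, 5400 were positive, 2.35% past the threshold upwards and 1.2% downwards. The differences of SLC7A11, GCLM, SRXN1 and KEAP1 had the sign of their neighbours' median. They were also larger, but the genes were chosen on this contrast, so nothing is read from that. GCLC, TXNRD1 and NQO1 also had the sign of their neighbours' median (-0.31, -0.19 and 0.13), while HMOX1 (-0.14, neighbours 0.14) and NFE2L2 (0.06, neighbours -0.09) had the opposite one. The neighbours' median GC content was 41.5% around SLC7A11, 39.0% around GCLM, 55.3% around SRXN1 and 59.8% around KEAP1. The part of the neighbourhood and of its GC content was not tested.

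**Figure D4:**
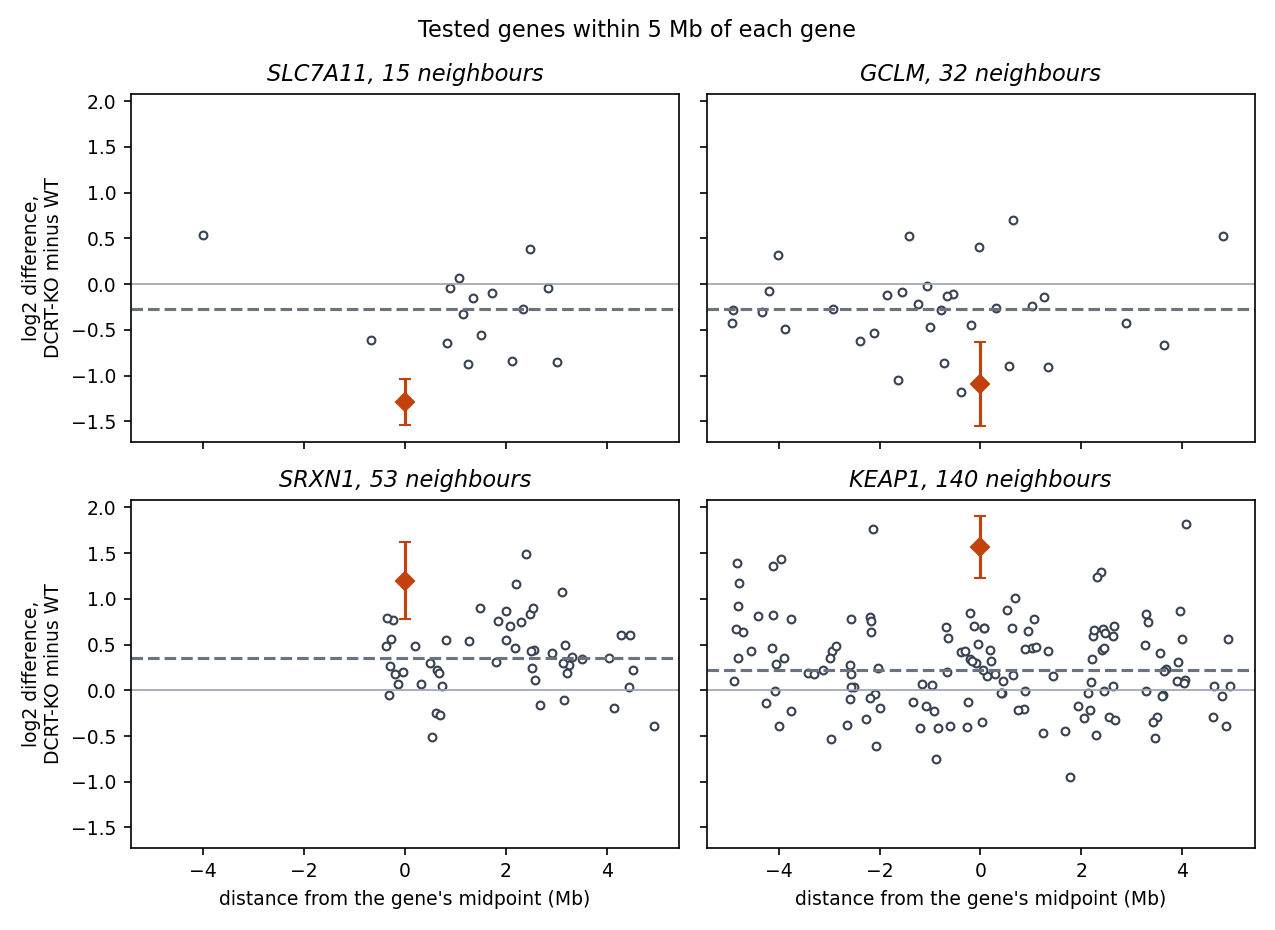
Log2 difference, DCRT-KO minus WT (y axis), of the tested genes within 5 Mb of SLC7A11, GCLM, SRXN1 and KEAP1, the 4 of the 9 genes outside the 5th to 95th percentile of all tested genes, by distance from the gene's midpoint (x axis, Mb). Diamonds are the named genes with their SE, circles their neighbours, and the dashed line is the neighbours' median (-0.27, -0.28, 0.35 and 0.22). In each panel the diamond lies on the same side of 0 as the dashed line.

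By likeness of pattern, the genes closest to SLC7A11 among 7098 with a mean of at least 5 FPKM were ANKRD50, ZBTB10, ZNF507, FRYL and APAF1, with Pearson's r of 0.999, 0.993, 0.990, 0.989 and 0.988 over log2(FPKM + 1) in 6 libraries. All 5 were low in DCRT-KO library 1, higher in libraries 2 and 3 and highest in WT, with differences between -0.88 for ANKRD50 and -0.33 for APAF1, and GC contents of 39.2% to 41.7%. The points share depth and genotype, so r is a description of the profile. Within the set, r with SLC7A11 was highest for TXNRD1 at 0.86 and lowest for KEAP1 at -0.88.

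The wider antioxidant system was described from 9 lists of 169 genes, of which 168 were found under the listed name and 146 were tested. Of these, 5 rose and 0 fell past the threshold (limma adjusted p below 0.05), 3.42% against the 3.55% of all tested genes, and their median log2 difference was 0.06 against -0.04. The share past the threshold was thus close to that of all genes. The groups did not overlap for 31.5% of the list genes, against 30.3% of all tested genes. Leaving out WT library a, b or c, 0 rose and 0 fell, without DCRT-KO library 1, 3 rose and 1 fell, and without library 2, 2 rose and 0 fell. With voom on whole reads 13 rose and 4 fell, where of all 11445 tested genes 669 rose and 389 fell. Without DCRT-KO replicate 3 there were 10 and 8, where of all tested genes 707 rose and 821 fell. The counts of the lists thus grew in settings where those of all genes grew. With the GC and length trends removed 2 rose, IDH2 and PRDX5. Of the 5 genes that rose, all had GC contents between 55.9% and 64.2%.

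Among 27 tested genes of glutathione synthesis, recycling and use, 1 rose and 0 fell, where 2.35% of all tested genes rose and 1.2% fell. GPX1, the cytosolic glutathione peroxidase, had 206, 292 and 224 FPKM in DCRT-KO and 113, 98.2 and 144 FPKM in WT libraries, without overlap, a log2 difference of 1.02 ± 0.20 (SE, limma adjusted p = 0.0336). Its adjusted p was 0.0736 with quantile normalization, 0.0882 without DCRT-KO library 2 and 0.143, 0.165 and 0.0893 without WT library a, b and c, and over all alternatives it ran from 0.00174 to 0.165. Its log2 difference was 0.57 with quantile normalization and 0.54 with GC and length trends removed (limma adjusted p = 0.138). GSTP1, the most abundant glutathione transferase here, had 112 ± 29.9 FPKM in DCRT-KO and 64.9 ± 5.89 FPKM in WT (SD, n = 3 each; limma adjusted p = 0.0720). The list's median difference was 0.03.

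Among 21 tested genes of thioredoxins, peroxiredoxins and peroxide removal, 1 rose and 0 fell, where 2.35% of all tested genes rose and 1.2% fell. PRDX5, a peroxiredoxin found in mitochondria and peroxisomes, had 74.8, 90.3 and 81.7 FPKM in DCRT-KO and 31.4, 36.2 and 35.5 FPKM in WT libraries, well apart, with a log2 difference of 1.23 ± 0.15 (SE, limma adjusted p = 0.0102). Its limma adjusted p was 0.0667, 0.0796 and 0.0696 without WT library a, b and c, and ran from 0.00211 to 0.0796 over all alternatives. Its log2 difference was 0.76 with GC and length trends removed (limma adjusted p = 0.0461). PRDX6 and PRDX3, the most abundant of the list, had 82.2 ± 29.1 and 67.6 ± 15.8 FPKM in DCRT-KO, against 72.2 ± 6.96 and 67.2 ± 4.90 FPKM in WT (SD, n = 3 each), and did not pass (limma adjusted p = 0.794 and 0.973).

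Of 13 tested NADPH-supplying genes, 1 rose and 0 fell, where 2.35% of all tested genes rose and 1.2% fell. The list median was 0.29. IDH2, the mitochondrial NADP-dependent isocitrate dehydrogenase, had 23.5, 20.9 and 14.4 FPKM in DCRT-KO and 6.18, 5.53 and 4.65 FPKM in WT libraries. The groups lay well apart, the ratio of means was 3.60, and the log2 difference was 1.66 ± 0.23 (SE, limma adjusted p = 0.0135). Its limma adjusted p was 0.0607, 0.0821 and 0.0857 without WT library a, b and c, and ran from 0.00108 to 0.0857 over all alternatives. The pentose phosphate genes RPE and PGD had 35.8 ± 20.9 and 38.1 ± 12.3 FPKM in DCRT-KO, against 53.0 ± 10.1 and 40.1 ± 9.63 FPKM in WT, and did not pass (limma adjusted p = 0.285 and 0.859).

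In heme and iron handling, 2 of 14 tested genes rose and 0 fell, where 2.35% of all tested genes rose and 1.2% fell. The list was written with earlier results of these data known, so nothing is read from this count. HMOX2, the constitutive heme oxygenase, had 15.7, 14.3 and 10.5 FPKM in DCRT-KO and 5.03, 6.91 and 5.31 FPKM in WT libraries (log2 difference 1.09 ± 0.22 SE, limma adjusted p = 0.0363), without overlap. STEAP3, an endosomal ferrireductase, had 40.7, 50.5 and 47.5 FPKM in DCRT-KO and 31.3, 22.9 and 26.2 FPKM in WT libraries, also without overlap (log2 difference 0.77 ± 0.18 SE, limma adjusted p = 0.0483). Without DCRT-KO library 3 both passed (limma adjusted p = 0.0138 and 0.0386), and without any other single library neither did. The adjusted p of HMOX2 ran from 0.0138 to 0.161 and that of STEAP3 from 0.00997 to 0.210 over all alternatives. FTL, the ferritin light chain and the most abundant gene of all lists, had 1806 ± 125 FPKM in DCRT-KO and 1801 ± 105 FPKM in WT, and TFRC, the transferrin receptor, 88.6 ± 28.8 and 109 ± 25.9 FPKM in the same order (limma adjusted p = 0.994 and 0.473).

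In the other 5 lists 0 genes rose and 0 fell (limma adjusted p below 0.05), where 2.35% of all tested genes rose and 1.2% fell. These were 10 tested genes of cystine transport partners and cysteine supply (median -0.03), 12 detoxification enzymes and exporters (median -0.06), 22 NRF2 regulators and partners (median 0.03), 14 genes of lipid peroxidation and ferroptosis (median -0.11) and 13 of the ATF4 branch (median 0.15). The most abundant genes of these lists are given by their values. CD44, whose variant form stabilises xCT, had 70.2 ± 12.2 FPKM in DCRT-KO and 101 ± 4.97 FPKM in WT (SD, n = 3 each; limma adjusted p = 0.1003). BACH1, a repressor that competes with NRF2 at its elements, had 26.6 ± 4.09 FPKM in DCRT-KO and 33.4 ± 1.34 FPKM in WT (limma adjusted p = 0.278), and GSK3B, a kinase that marks NRF2 for degradation, 34.9 ± 3.43 and 34.8 ± 2.45 FPKM in the same order (limma adjusted p = 0.996). ACSL4, which loads membranes with polyunsaturated fatty acids, had 25.4 ± 1.87 FPKM in DCRT-KO and 35.4 ± 1.79 FPKM in WT (limma adjusted p = 0.110). FDFT1, squalene synthase, had 51.4 ± 4.25 FPKM in DCRT-KO and 35.4 ± 0.569 FPKM in WT (limma adjusted p = 0.0778). The export pump ABCC1 had 24.9 ± 4.46 FPKM in DCRT-KO and 17.2 ± 1.33 FPKM in WT (limma adjusted p = 0.141), and the aldose reductase AKR1B1 19.4 ± 7.62 and 23.1 ± 4.98 FPKM in the same order (limma adjusted p = 0.560).

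The ATF4 branch shares SLC7A11 as a target. Its serine synthesis genes PHGDH and PSAT1 had 161 ± 35.5 and 116 ± 27.9 FPKM in DCRT-KO, against 98.1 ± 6.77 and 109 ± 11.6 FPKM in WT (SD, n = 3 each; limma adjusted p = 0.0673 and 0.863). SLC7A5, the amino acid transporter that also pairs with SLC3A2, had 68.0 ± 13.9 FPKM in DCRT-KO and 60.5 ± 2.63 FPKM in WT (limma adjusted p = 0.661).

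**Figure D5:**
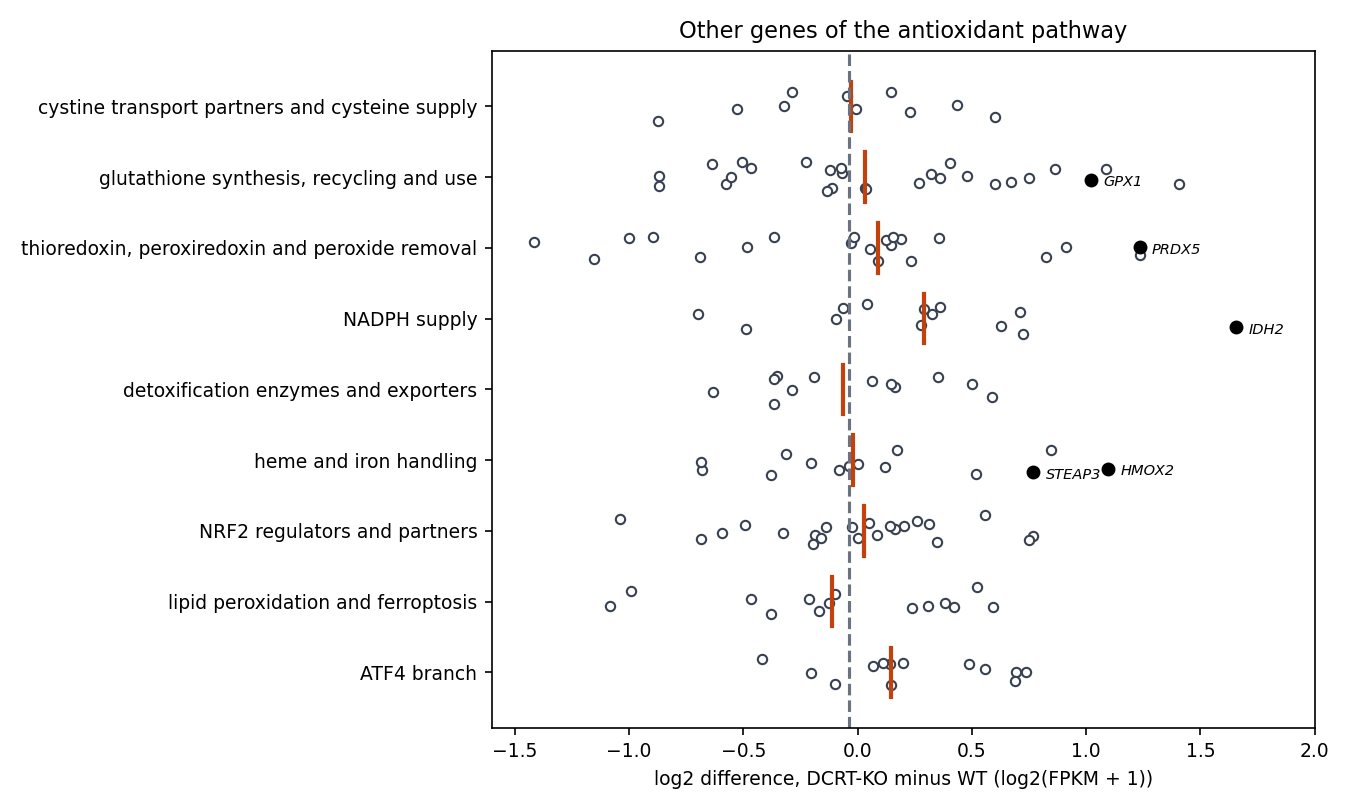
Log2 difference, DCRT-KO minus WT on the log2(FPKM + 1) scale (x axis), of the 146 tested genes in 9 lists (y axis). Circles are genes, filled and named where past the limma threshold (IDH2, PRDX5, HMOX2, GPX1 and STEAP3), red bars are list medians (-0.11 to 0.29) and the dashed line is the median of all tested genes (-0.04).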

How the data were processed

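The authors deposited 1 table of FPKM values per gene for 3 DCRT-KO and 3 WT PTBP1 RIP libraries. Per the labels' protocols, libraries were strand-specific and sequenced as paired ends, and the tools included cutadapt 1.2.1, per the submitters' processing notes; no aligner, counter or build is given in the sources used here. FPKM fixes each library's total, so changes are relative. Positions are those of the file; 4 of the 9 match GENCODE 29 (GRCh38) exactly. Names tied each DCRT-KO column to its sample; WT columns, whose header repeats a number, were tied to the group only (libraries a to c in column order); 0 per-sample columns were left unused.

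Reads were recovered by multiplying FPKM by length and dividing by the step of the column, whole for 100% of values (tolerance 1e-06). The two-sided test was that of limma 3.58.1 (R 4.3.3) with variance trend on log2(FPKM + 1), over the 11445 genes whose mean reached 1 FPKM, all of which entered the Benjamini-Hochberg adjustment. The p-values reflect only how far these libraries spread, possibly technical spread. The members and lists were chosen with earlier results of these data known. Named genes were the 9 members, PTBP1, SLC3A2, list genes past the threshold, the 2 most abundant of each list, 2 neighbours on each side of SLC7A11 and its 5 most similar genes. Of a name with 2 rows the row with the higher mean was used. On 5 simulated sets (mean 11378.4 genes tested, 200 changed) the test found 40.2% of the 2-fold and 83.8% of the 4-fold changes, with 6.4 false calls among 130.4 on average. The simulated counts had the same extra spread for every gene and no trend with GC content, so these rates need not hold for the real libraries. Alternatives were another pseudocount, filters, scalings, limma settings, voom on reads, each library left out and, added later, removal of trends with GC content and length (lowess, span 0.3). Other work was done in Python 3.11.15.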

Additional observations from a re-analysis of the deposited data

How the results depend on the processing

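The log2 difference of SLC7A11 kept its sign in all 16 alternatives (-1.44 to -0.88), moving by more than the replicate spread only with GC and length trends removed (-0.88), and was past the threshold in 9; KEAP1 kept its sign in all 16 (1.34 to 1.93) and was past it in 7. Leaving out 1 library at a time, the log2 difference of SLC7A11 ran from -1.42 to -1.04. Counts depended more on the setting. Leaving out 1 library gave 0 to 707 genes higher and 0 to 821 lower in all, 0 to 10 and 0 to 8 of the pathway lists, and 0 to 1 and 0 to 2 of the 9 genes. The fewest came without WT library a, b or c (4, 8 and 0 higher) and the most without DCRT-KO replicate 3. Against 269 higher and 137 lower genes in all, no filter gave 72 and 50, limma without a variance trend 70 and 64, voom 669 and 389 and removal of GC and length trends 92 and 67; a pseudocount of 0.1 gave 90 lower and quantile normalization 278 lower. Against 5 higher and 0 lower pathway genes, no filter, no variance trend and removal of GC and length trends gave 2 higher, quantile normalization 3 higher and 2 lower, voom 13 and 4, and median-of-ratios scaling and removal of mitochondrially encoded genes 1 lower each. Of the 9 genes, no filter, no variance trend and GC and length removal left 0 higher and 0 lower, a pseudocount of 0.1 left 0 higher, and voom called 2 higher, KEAP1 and SRXN1. With quantile normalization 281 genes were higher beside the 278 lower. The cause was not tested. No paired analysis was possible because the headers number the WT libraries 1, 1 and 2, which does not name a replicate. Few reads limit GCLM in DCRT-KO libraries 1 and 2, and HMOX1 and SRXN1 in both groups. SRXN1 had 18 reads in DCRT-KO and 7 in WT.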
